A study of Mus musculus with 15 samples.

Results

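Wild-type Twist1 was compared with an empty vector in Myc-CaP cells, a mouse prostate cancer line that arose in an animal with a Myc transgene. The comparison uses 6 of the 15 arrays of the series, 3 of cells with wild-type Twist1 (WT) and 3 of cells with the vector alone (VEC), each with replicates A, B and C. Both groups were transfected, selected and grown to confluence, so the controls share the handling and the selection. The other 9 arrays carry the Twist1 forms AQA, DQD and F191G, whose names are those of the labels, and serve here to estimate the spread of each gene and for 1 contrast at the end. The series' text names WT against VEC as a planned comparison, while its title asks about mutation of the Twist box. The labels place VEC and WT replicates A and B in array batch A and both C replicates in batch B. They do not say whether replicates were separate cultures, clones or passages of 1 selected pool, so a p-value here reflects only how these arrays varied, and that variation can be technical. Neither the promoter behind Twist1 nor the form of selection is given in the sources used here, and all values come from 1 cell line.

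Twist1 belongs to the basic helix-loop-helix family of transcription factors. It binds E-box sequences as a dimer with itself or with an E protein such as Tcf3, Tcf4 or Tcf12, and Id proteins, which lack the DNA-binding region, compete for those partners. In development it shapes mesoderm and skull bones, and in carcinoma cells it is best known for driving epithelial-mesenchymal transition. Its C-terminal Twist box takes part in transactivation and in contacts with other factors.

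Expression is given as the deposited log2 value of 1 probe set per gene, so that a difference of 1 stands for a 2-fold ratio, and 19297 genes were tested. Array medians lay between 6.31 and 6.42 and pairwise correlations among the 6 arrays between 0.974 and 0.998, with the lowest involving WT A, without which the lowest was 0.991. Of 14 prostate epithelial markers measured, 7 lay above the middle of the arrays' values, 6.37, in at least 1 group. Foxa1 read 11.27, 11.19 and 11.09 in VEC and 11.38, 11.26 and 11.28 in WT, and Krt8 8.89, 7.57 and 8.14 in VEC and 8.39, 8.20 and 8.21 in WT, while Cdh1 (5.64, 5.62 and 5.72 in VEC and 5.75, 5.70 and 5.73 in WT) and Epcam (5.15, 5.04 and 5.07 in VEC and 5.03, 4.98 and 5.08 in WT), 2 defining epithelial adhesion genes, lay below that middle in every array. The mean log2 level of the whole marker list ran from 6.29 to 6.53 in VEC and from 6.47 to 6.58 in WT. Vim, an intermediate filament gene of mesenchymal cells, was bright in both groups, at 12.45, 12.38 and 12.40 in VEC and 12.16, 12.59 and 12.53 in WT. Throughout, values are listed in the order A, B, C.

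The Twist1 probe set itself did not pass the test. It read 6.45, 6.71 and 6.13 in VEC and 6.77, 6.85 and 6.75 in WT, a difference of 0.36 (SE 0.15, limma adjusted p = 0.129). All 3 WT arrays lay above all 3 VEC arrays, WT C at 6.75 by a narrow margin over VEC B at 6.71, and the lowest VEC value was that of VEC C. The difference was 0.23 within batch A and 0.62 within batch B. Whether this probe set covers the introduced Twist1 sequence was not tested, so it does not settle how much Twist1 the WT cells made.

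Among the partners of Twist1, the E-protein gene Tcf4 rose. It read 9.83, 9.96 and 9.76 in VEC and 10.62, 10.31 and 10.32 in WT, and rose by 0.56 (SE 0.089, limma adjusted p = 0.00546), with no overlap between the groups. Its relatives Tcf3 (10.01, 9.77 and 9.80 in VEC and 10.03, 9.91 and 10.06 in WT) and Tcf12 (10.10, 10.23 and 10.32 in VEC and 10.34, 10.33 and 10.24 in WT) overlapped between groups, with differences of 0.14 and 0.09. Of the Id genes only Id3 passed the test, at 7.70, 6.55 and 6.92 in VEC and 8.31, 7.65 and 7.80 in WT, where VEC A lay above WT B: it rose by 0.86 (SE 0.26, limma adjusted p = 0.0469), and the call held without only 2 of the 6 arrays. Id1, Id2 and Id4 differed by 0.34, 0.02 and -0.08. Twist2, the close paralogue, read 8.90, 9.09 and 9.10 in VEC and 8.95, 9.02 and 9.02 in WT, and none of 6 related factors, among them Hand1, Msc and Scx, passed the test.

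With limma on all 15 arrays, 1362 genes (7.06% of those tested) were higher and 1104 (5.72%) lower in WT at an adjusted p under 0.05. These shares are the background for every count of list members called in this comparison, and no list was tested as a whole. All lists and families were written with earlier results of these data known. No share of calls in them is therefore independent support. The difference was over 1 log2 unit for 134 of the genes that rose and for 57 of those that fell. Nearly all of these genes had groups that did not overlap, 1354 of those higher and 1099 of those lower. Over all genes, 2941 (15.2%) had every WT array above every VEC array and 3159 (16.4%) every WT array below. These numbers depended on the arrays in the fit. With only the 6 WT and VEC arrays, 9 genes were called higher and 1 lower. Single arrays mattered too. Without VEC C, 87 genes were called higher and 41 lower, and without WT A 518 and 326. Leaving out VEC A gave 832 and 482, and leaving out VEC B 974 and 719. Within batch A alone (2 arrays against 2) no gene passed in limma, although 1531 were higher and 1372 lower before adjustment (p under 0.05). Batch B alone, where the spread comes from the other Twist1 forms, gave 213 higher and 80 lower.

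**Figure D1:**
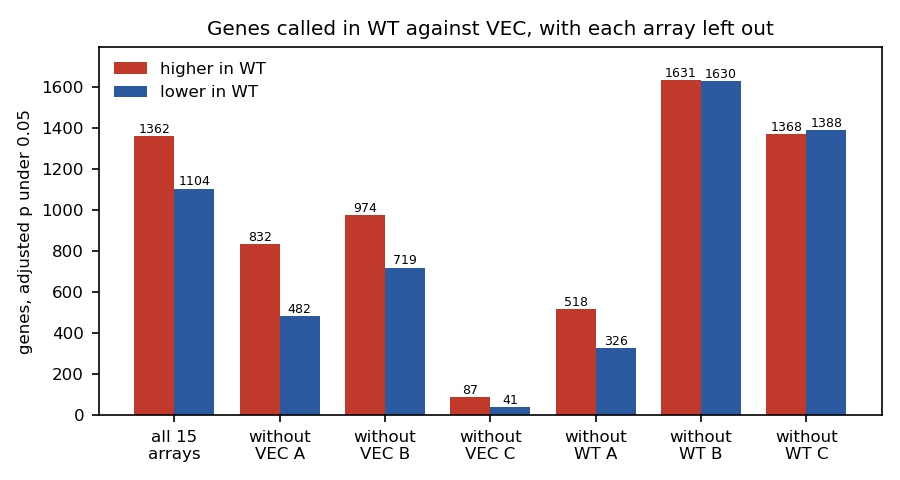
Number of genes called higher (red) and lower (blue) in WT than in VEC at a limma adjusted p under 0.05, with all 15 arrays and with each of the 6 WT and VEC arrays left out in turn. The bars fall from 1362 and 1104 to 87 and 41 without VEC C, and to 518 and 326 without WT A.

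The genes that passed with all arrays and again without each of the 6 numbered 86 higher (0.446% of genes tested) and 41 lower (0.212%). The size of this set depends on the model, with 571 and 367 when the batch term was dropped, 46 and 28 when each array was centred on its median and 186 and 98 without the dimmest genes. It was 14 and 4 when the replicate letters were added as a block. Of 286 called genes that the rule for named genes picked, 42 stayed called without VEC C and 152 without WT A. Rises of the genes called throughout ran from 0.33 to 5.02 with a median of 0.77, and their falls from 0.32 to 1.73. Of the 41 falls 8 lay on chromosome 16, where 25 of 623 genes were called higher and 65 lower. Among genes with a mean over 7, its median shift from the VEC mean was -0.044, -0.107 and -0.096 in WT. Over all such genes that shift was -0.029, -0.006 and -0.017 in WT and from -0.02 to 0.072 in the arrays of the other forms. On chromosome 16 it was -0.092, -0.099 and -0.119 in AQA and -0.082, -0.048 and -0.102 in F191G. In DQD it was -0.026, 0.019 and -0.046. The lower values on this chromosome were thus not particular to WT. On chromosome 8, 41 of 929 genes were called higher and 84 lower. Among its genes with a mean over 7 the shift was -0.002, -0.072 and -0.061 in WT. It was -0.08, -0.074 and -0.097 in AQA, -0.055, -0.011 and -0.068 in DQD and -0.133, -0.053 and -0.111 in F191G. Whether whole chromosomes differed was not tested. Ifit3, an interferon-induced antiviral gene, had the largest rise of all genes. It read 4.40, 4.90 and 3.52 in VEC and 9.76, 9.46 and 8.67 in WT, and rose by 5.02 (SE 0.52, limma adjusted p = 0.00091). Its close copy Ifit3b read 2.66, 3.25 and 2.85 in VEC and 6.98, 6.06 and 5.42 in WT and rose by 3.23 (SE 0.48, limma adjusted p = 0.00462). Whether probes for such similar genes take up each other's RNA was not tested, so the values of the pair may not be independent. Lgals3bp, a secreted glycoprotein that binds galectins, read 6.49, 5.96 and 5.63 in VEC and 10.11, 8.80 and 8.65 in WT, more than 2 units apart from VEC in every array, and rose by 3.16 (SE 0.43, limma adjusted p = 0.0033). Within the batches Ifit3 differed by 4.95 within batch A and 5.15 within batch B, and Lgals3bp by 3.23 within batch A and 3.02 within batch B.

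Pdcd4, which encodes an inhibitor of the translation helicase eIF4A, had a smaller error than any of these. It read 7.18, 7.77 and 6.80 in VEC and 10.03, 9.26 and 9.60 in WT and rose by 2.38 (SE 0.23, limma adjusted p = 0.000753). Kdm7a, a histone demethylase gene, read 6.52, 6.69 and 6.03 in VEC and 9.30, 7.98 and 8.56 in WT and rose by 2.20 (SE 0.31, limma adjusted p = 0.00416). Trp53inp1, a stress-induced gene linked to p53 and autophagy, read 6.29, 6.23 and 5.66 in VEC and 8.97, 7.67 and 8.07 in WT and rose by 2.18 (SE 0.30, limma adjusted p = 0.00391). In all of these WT A was the highest array and WT B the lowest of the WT group, and in none did the groups overlap. The same order held for Depp1, a FoxO-responsive autophagy gene (6.49, 6.76 and 6.37 in VEC and 9.09, 7.78 and 8.12 in WT), and for Calcoco1, an autophagy receptor gene (7.85, 8.31 and 7.52 in VEC and 10.08, 9.13 and 9.52 in WT), which rose by 1.79 and 1.68. Dusp1, a phosphatase that switches off MAP kinases, read 9.16, 9.58 and 9.15 in VEC and 11.24, 10.52 and 10.78 in WT and rose by 1.55. Folh1, the gene of prostate-specific membrane antigen, varied little within WT, at 8.48, 7.92 and 8.22 in VEC and 9.61, 9.59 and 9.74 in WT, and rose by 1.44 (SE 0.16, limma adjusted p = 0.000929). The rest of the 15 largest rises of this set were Fbxl20 (1.66), Gdpd3 (1.53), Rassf4 (1.52), the mitochondrial aldehyde dehydrogenase gene Aldh2 (1.47) and Castor2 (1.35).

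Keratin 15 led the falls. Krt15, a basal keratin gene, read 8.73, 7.56 and 7.90 in VEC and 6.62, 6.05 and 6.32 in WT, and fell by 1.73 (SE 0.26, limma adjusted p = 0.00462). Cxcl5, a chemokine that attracts neutrophils, followed: it read 8.26, 8.29 and 8.42 in VEC and 6.76, 7.07 and 7.22 in WT and fell by 1.30 (SE 0.12, limma adjusted p = 0.000753). H1f1, a linker histone gene, read 10.31, 10.44 and 10.50 in VEC and 8.98, 9.56 and 9.50 in WT with WT A lowest, and fell by 1.07. Tnnt2, the cardiac troponin T gene, read 9.34, 8.61 and 8.60 in VEC and 7.61, 7.94 and 8.12 in WT, where VEC A stood above the other controls, and fell by 0.96 (SE 0.18, limma adjusted p = 0.00992). The cholesterol synthesis genes Msmo1 and Sqle were among the 15 largest falls of this set. Msmo1 read 9.31, 9.92 and 9.75 in VEC and 8.63, 8.74 and 8.82 in WT and fell by 0.93, and Sqle read 9.04, 9.38 and 9.29 in VEC and 8.11, 8.48 and 8.48 in WT and fell by 0.88. The others among the 15 largest falls were Elmod1 (-0.97), the RNA polymerase II subunit gene Polr2d (-0.89), Asb17 (-0.88), the keratin genes Krt13 (-0.83) and Krt78 (-0.69), Phospho1 (-0.74), S100a16 (-0.72), Dhrs7b (-0.70) and the nucleolar gene Ebna1bp2 (-0.69).

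**Figure D2:**
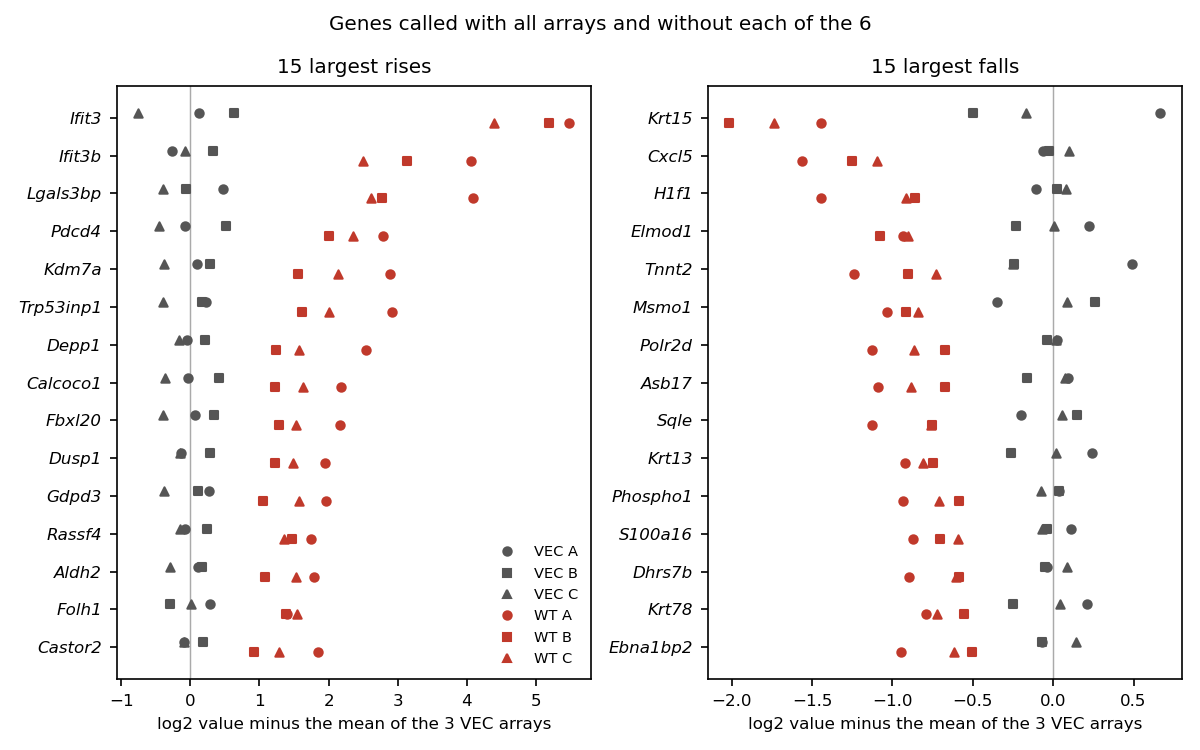
Log2 value of each array minus the mean of the 3 VEC arrays (x axis) for the 15 largest rises (left) and 15 largest falls (right) among the genes called with all arrays and without each of the 6. VEC arrays are grey and WT arrays red, and shapes mark replicates A, B and C. No gene shown has overlapping groups, and Ifit3 stands apart with a rise of 5.02.

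Other large rises were uneven across the WT arrays. Ogn, the gene of the small leucine-rich proteoglycan osteoglycin, read 4.23, 5.37 and 3.99 in VEC and 10.62, 6.37 and 9.30 in WT. WT A and WT C were thus far above VEC while WT B was about 1 unit above VEC B, and the gene rose by 4.24 (SE 0.91, limma adjusted p = 0.014). Angptl7, a secreted angiopoietin-like factor, followed the same order at 5.15, 5.89 and 4.55 in VEC and 11.20, 7.35 and 10.31 in WT and rose by 4.42 (SE 0.84, limma adjusted p = 0.00976). Igfbp5, which binds insulin-like growth factors, read 7.83, 9.09 and 7.79 in VEC and 12.02, 9.27 and 10.77 in WT. Its WT B value was within 0.2 of VEC B, and it rose by 2.46 (SE 0.60, limma adjusted p = 0.0213). The fibrinogen chain gene Fgb (5.42, 5.59 and 4.90 in VEC and 9.67, 6.24 and 7.51 in WT) and the haemoglobin-binding Hp (5.79, 5.80 and 5.77 in VEC and 8.86, 6.67 and 7.57 in WT) also had WT A highest and WT B lowest, with rises of 2.50 and 1.91. So did Apof, an apolipoprotein gene (6.47, 6.14 and 5.95 in VEC and 9.79, 7.995 and 8.34 in WT), with 2.53, and Cyp2b10, a cytochrome P450 gene (6.14, 5.87 and 5.19 in VEC and 9.65, 6.58 and 7.88 in WT), with 2.31. None of these 7 calls held without VEC C, and those of Igfbp5, Fgb, Hp and Cyp2b10 were also lost without VEC A and without WT A. The calls of Fgb and Cyp2b10 were lost without VEC B too, and that of Cyp2b10 without WT C.

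Fgg, which encodes another fibrinogen chain (1.01), Serpinf1, which encodes the angiogenesis inhibitor PEDF (1.15), and Apod (0.83) rose as well. The whole list of plasma proteins and complement had 6 of 48 members higher and 1 lower (Itih4), against 7.06% and 5.72% of all genes. Its median difference was 0.047 against -0.0093 over all genes. The rises numbered 3 without VEC A, 0 without VEC C and 3 without WT A. Among small proteoglycans, the IGF axis and angiopoietin-like factors, 5 of 31 rose, where 7.06% of all genes did. They were Ogn, Angptl7, Igfbp5 and the receptor genes Insr and Igf1r, and the list median was -0.013. Without VEC C none of the 31 passed. Omd, which encodes the related proteoglycan osteomodulin, read 4.38, 4.60 and 4.53 in VEC and 6.26, 4.81 and 5.33 in WT, and did not pass at 0.97 (limma adjusted p = 0.0531).

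Keratin 19 showed the reverse arrangement, with the unevenness on the vector side. Krt19, a luminal keratin gene, read 10.28, 7.15 and 8.42 in VEC and 6.48, 6.45 and 6.54 in WT. The 3 WT arrays lay within 0.1 of each other while the controls spanned over 3 units, and the gene fell by 2.13 (SE 0.52, limma adjusted p = 0.0225), the largest fall of all genes tested, although the call was lost without VEC C and without WT A. Krt6a, a keratin of stressed epithelium, read 8.80, 7.45 and 7.86 in VEC and 6.16, 6.68 and 7.20 in WT and fell by 1.36. Krt23 read 5.62, 5.81 and 5.54 in VEC and 5.05, 5.21 and 5.18 in WT and fell by 0.51. Of 9 basal and stress keratins 3 fell, and of 5 luminal keratins 1. Krt14 did not pass at -0.63 (limma adjusted p = 0.0546), nor did Krt8 at 0.06 (limma adjusted p = 0.91). Of 21 junction proteins 1 fell: Cldn1, a tight junction gene, read 10.79, 10.79 and 10.87 in VEC and 10.08, 9.85 and 10.15 in WT and fell by 0.79 (SE 0.19, limma adjusted p = 0.0201). In all, 5 of 35 keratin and junction genes fell and none rose, against 5.72% and 7.06% of all genes. The falls numbered 3 without VEC A, 2 without VEC C and 3 without WT A, and the list median was -0.039. Leaving out VEC A also brought 4 genes of the list to a call in the higher direction.

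In most of the other large falls WT A lay far below WT B and WT C, though these also lay below every VEC array. Cck, the gene of the peptide cholecystokinin, read 10.98, 10.66 and 10.83 in VEC and 7.74, 9.64 and 10.08 in WT, with WT B and WT C much nearer to VEC, and fell by 1.67 (SE 0.47, limma adjusted p = 0.0357). Without VEC A, VEC B, VEC C or WT A the call of Cck was lost. Melk, a kinase of dividing cells (8.60, 8.19 and 8.36 in VEC and 6.15, 7.71 and 7.52 in WT), Fancb of the Fanconi group (7.90, 7.76 and 7.92 in VEC and 5.59, 7.03 and 7.11 in WT), the condensin subunit gene Smc2 (9.72, 9.40 and 9.62 in VEC and 7.14, 8.92 and 8.88 in WT) and Wdr76 (8.43, 8.14 and 8.31 in VEC and 5.93, 7.52 and 7.58 in WT) had the same order, with changes of -1.26, -1.28, -1.26 and -1.28. Scgb1a1, a secreted airway and gland protein gene, differed from these. It read 7.74, 6.03 and 6.43 in VEC and 5.27, 5.53 and 5.61 in WT, with VEC A highest as in Krt19 and the WT arrays close together, and fell by 1.27 (SE 0.31, limma adjusted p = 0.0207).

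Epithelial-mesenchymal transition genes were called about as often as all genes. Of 25 listed, 2 rose and 2 fell, against 7.06% and 5.72% of all genes, and the median was -0.0019. The rises were Tcf4, described above, and Sox9 (10.02, 10.66 and 10.41 in VEC and 11.01, 10.72 and 10.73 in WT), which rose by 0.46 (SE 0.13, limma adjusted p = 0.0343) and whose VEC values spread widely. The falls were S100a4, a calcium-binding protein gene of motile cells (9.33, 8.80 and 9.03 in VEC and 8.59, 8.71 and 8.61 in WT, a change of -0.42), and the fibronectin receptor subunit gene Itga5 (10.39, 10.52 and 10.53 in VEC and 9.52, 9.93 and 10.26 in WT, a change of -0.58). Neither fall was called without VEC A, VEC C or WT A, and of the rises 1 was called without each of these. The transcription factors Snai1 (0.03), Snai2 (0.06), Zeb1 (0.21), Zeb2 (0.08) and Prrx1 (0.06) did not pass. Cdh2, the N-cadherin gene, differed by -0.0019 and Cdh1 by 0.06, Vim by 0.02 and Fn1, the fibronectin gene, by -0.12.

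Interferon signalling runs from secreted ligands through receptors and JAK kinases to transcription factors such as Stat2 and Irf9. These bind the interferon-stimulated response element (ISRE) of a large set of effector genes, many of them antiviral. Sensors of foreign RNA and DNA can start the cascade, and Usp18 and Socs proteins damp it. The motif searched here was TTTCNNTTTC on either strand, within the 250 bases upstream of RefSeq gene starts (GRCm38.p6), where N is any base. Stretches from called members, each shown 5′ to 3′ on the strand of its gene with motif matches in capitals and overlapping matches joined, show what the windows of some rising genes hold.
Ifit3, chr19:34583371-34583430 (plus strand): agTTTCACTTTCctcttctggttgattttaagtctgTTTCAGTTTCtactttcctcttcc
Ifit3b, chr19:34607767-34607826 (plus strand): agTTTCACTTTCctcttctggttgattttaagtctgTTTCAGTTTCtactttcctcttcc
Ifit1, chr19:34640768-34640827 (plus strand): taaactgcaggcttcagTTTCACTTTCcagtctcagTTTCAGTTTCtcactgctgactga
Stat2, chr10:128270248-128270307 (plus strand): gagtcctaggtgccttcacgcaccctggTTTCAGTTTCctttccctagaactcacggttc
Bst2, chr8:71537573-71537632 (minus strand): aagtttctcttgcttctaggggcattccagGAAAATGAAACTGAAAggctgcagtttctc
Oas1a, chr5:120907526-120907585 (minus strand): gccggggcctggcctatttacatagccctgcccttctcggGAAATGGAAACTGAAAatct
B2m, chr2:122147512-122147571 (plus strand): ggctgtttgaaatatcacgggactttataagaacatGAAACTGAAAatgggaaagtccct
Of these, Ifit1 rose by 1.96, Bst2 by 0.96 and Oas1a by 0.996, and the values of the others are in the text. The Ifit3 and Ifit3b stretches are the same 60 letters, and both hold the motif at 2 places. Of the called members of the interferon list with a window, 10 of 26 (38.5%) held a match, of those not called 3 of 26 (11.5%), and of all 15161 genes with a window 3.42%. Among all genes called higher the share was 3.77%. A match describes the letters of the window and says nothing of binding.

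Of 64 interferon response genes measured, 32 rose and none fell, where 7.06% of all genes rose, and the list had a median difference of 0.59. The count was 17 without VEC B, 4 without VEC C and 21 without WT B. The median was 0.59 within batch A and 0.63 within batch B. Of 9 ligand genes listed 7 were measured and none passed, with a median of 0.053. Ifnb1 read 4.14, 4.18 and 4.26 in VEC and 4.16, 4.19 and 4.22 in WT, far below the arrays' middle value of 6.37. At that level a flat reading does not settle whether its RNA changed. Of 7 receptor and kinase genes 3 rose, all of them receptor chains. Ifngr1 read 8.75, 8.61 and 8.66 in VEC and 9.22, 9.06 and 8.96 in WT and rose by 0.40 (SE 0.083, limma adjusted p = 0.012), and Ifngr2 and Ifnar1 rose by 0.63 and 0.32. The kinase genes Jak1, Jak2 and Tyk2 differed by -0.07, -0.06 and 0.21.

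Among 8 sensors the RNA helicase gene Ddx58 (RIG-I) read 7.06, 6.60 and 6.14 in VEC and 8.89, 8.60 and 8.30 in WT and rose by 1.996 (SE 0.37, limma adjusted p = 0.0091). Its adaptor gene Mavs read 9.55, 9.55 and 9.47 in VEC and 9.82, 9.77 and 9.74 in WT and rose by 0.26. The related helicase gene Ifih1 (-0.04) and the DNA sensor genes Cgas (-0.28) and Sting1 (-0.30) did not pass. Of the transcription factors, Irf9 read 6.95, 6.59 and 6.37 in VEC and 7.81, 7.84 and 7.64 in WT and rose by 1.12 (SE 0.21, limma adjusted p = 0.00989). Its partner gene Stat2 read 6.52, 6.40 and 6.10 in VEC and 7.65, 7.21 and 7.14 in WT and rose by 0.997 (SE 0.19, limma adjusted p = 0.00992). Irf7, itself an interferon target, read 5.83, 4.66 and 4.17 in VEC and 6.39, 7.55 and 7.27 in WT, with WT A the lowest WT array and VEC A the highest control, and rose by 2.18. Irf3, which acts upstream of the ligands, differed by -0.03, and Irf1 by 0.49 with overlapping groups.

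Effectors made up most of the rises, with 22 of 32 higher and 28 of 32 with every WT array above every VEC array. Of all genes, 7.06% were called higher and 15.2% had every WT array above every VEC array. Ifi27 read 7.38, 6.93 and 6.92 in VEC and 8.37, 8.001 and 7.99 in WT and rose by 1.05 (SE 0.16, limma adjusted p = 0.0049). Ifitm3, which blocks virus entry at membranes, read 7.01, 5.92 and 5.21 in VEC and 7.88, 8.51 and 8.76 in WT and rose by 2.33. Oas2, one of the enzymes that make the second messenger activating RNase L, read 6.16, 4.75 and 4.02 in VEC and 6.61, 7.37 and 7.54 in WT and rose by 2.20. Ifit2 (0.52), Parp14 (1.16), Rtp4 (2.21) and Oasl2 (2.10) rose as well. Mx1, a dynamin-like antiviral gene, read 3.91, 3.66 and 3.85 in VEC and 3.80, 4.50 and 3.89 in WT and did not pass at 0.26 (limma adjusted p = 0.515). The deubiquitinase Usp18, a brake on the receptor, read 5.69, 4.52 and 4.18 in VEC and 6.26, 7.59 and 7.21 in WT and rose by 2.22 (SE 0.64, limma adjusted p = 0.0409). Trim21 rose by 0.59. Socs1 (0.06) and Socs3 (0.27) did not pass. In Ifitm3 and Oas2, as in Irf7 and Usp18, VEC A was the highest control and WT A the lowest WT array, unlike Ogn and Angptl7, where WT A was the highest. Without VEC C, the calls of Ddx58, Irf9, Stat2, Irf7, Ifitm3, Oas2 and Usp18 were lost, and those of Irf7 and Usp18 also without VEC B, WT B or WT C. Over the whole list, the mean shift from the VEC mean was 0.27, -0.07 and -0.20 in VEC and 0.81, 0.93 and 0.79 in WT.

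**Figure D3:**
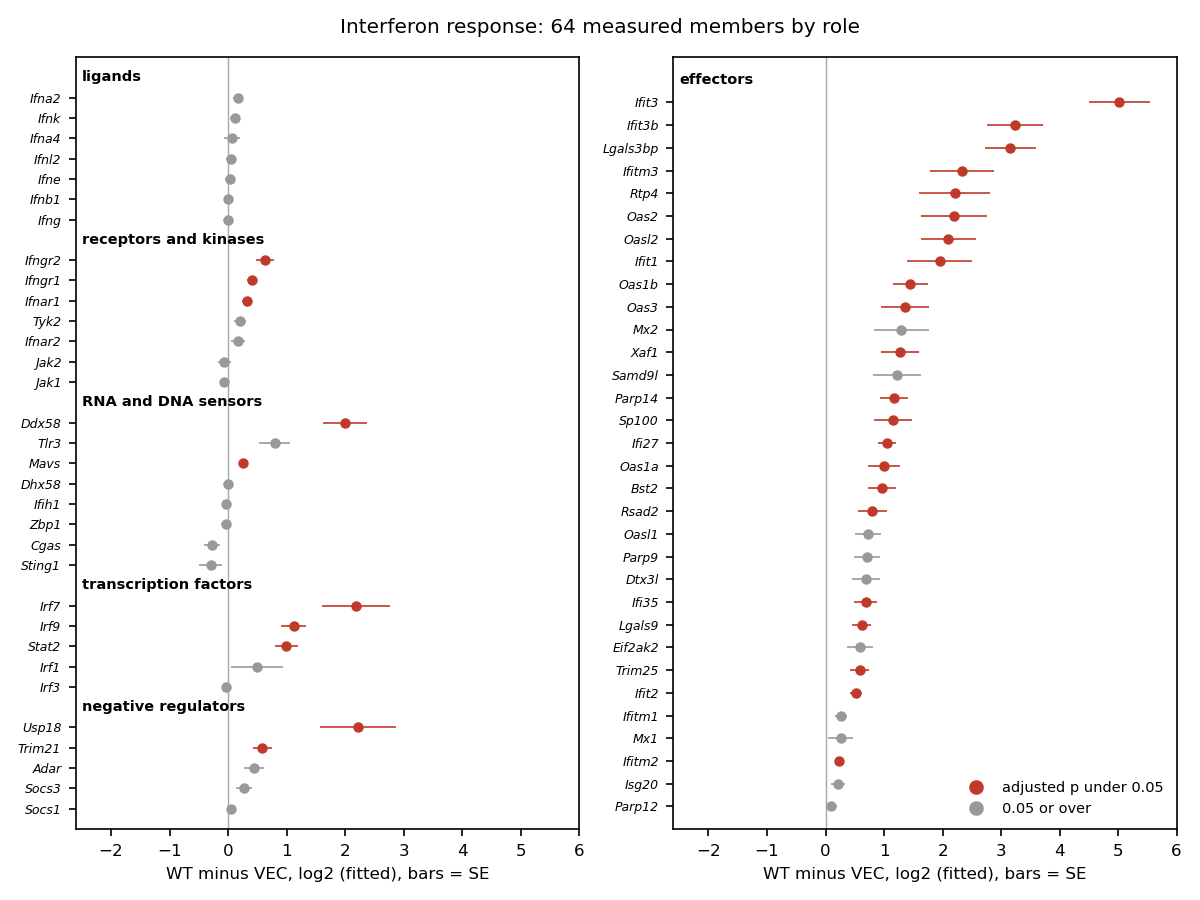
Fitted difference WT minus VEC on the log2 scale (x axis, bars are the SE) for the 64 interferon response genes measured, by role. Members with an adjusted p under 0.05 are red. None of the 7 ligands and 22 of the 32 effectors are red, with Ifit3 at 5.02.

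Antigen presentation on class I molecules is also induced by interferon. Of 15 genes 9 rose and none fell, against 7.06% and 5.72% of all genes, with a median of 0.39, and the count was 5 without VEC B and 0 without VEC C. B2m, the light chain shared by class I molecules, read 12.03, 11.83 and 11.86 in VEC and 12.49, 12.17 and 12.26 in WT and rose by 0.40 (SE 0.098, limma adjusted p = 0.0217). H2-Q4, a class I heavy chain gene with close copies on the array, read 5.35, 5.15 and 5.05 in VEC and 5.80, 5.67 and 5.72 in WT and rose by 0.55. Tapbp (tapasin), which helps to load peptide, read 9.59, 9.08 and 8.87 in VEC and 10.94, 10.15 and 10.25 in WT and rose by 1.26 (SE 0.24, limma adjusted p = 0.00992). The peptide transporter genes Tap1 and Tap2 rose by 0.87 and 0.39, the trimming peptidase gene Erap1 by 0.57 and the immunoproteasome genes Psmb9 and Psme1 by 0.36 and 0.49. Nlrc5, the class I transactivator, differed by 0.02, and Ciita, the class II transactivator, by -0.13.

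FoxO factors are switched on when insulin and growth-factor signalling through PI3K and Akt is low. Their targets slow the cell cycle, restrain translation, support autophagy and raise the receptors and sensors of the same pathway. The list described here joins FoxO genes with other growth-restraint genes, among them Pdcd4, Kdm7a and Klhl24. Like the other lists, it was written with earlier results of these data known, so its share of calls is no independent support. Of its 49 genes 18 rose and none fell, against 7.06% and 5.72% of all genes, with a median of 0.31, and the count was 4 without VEC C. The median was 0.29 within batch A and 0.38 within batch B. Foxo1 read 7.77, 8.03 and 7.86 in VEC and 8.77, 8.57 and 8.42 in WT and rose by 0.70 (SE 0.12, limma adjusted p = 0.00726), while Foxo4 did not pass at 0.35 (limma adjusted p = 0.0641), nor Foxo6 at -0.02 (limma adjusted p = 0.913). Of the feedback genes, Sesn3, a sestrin that restrains mTORC1, read 7.32, 7.13 and 6.97 in VEC and 8.29, 7.91 and 7.88 in WT and rose by 0.89 (SE 0.14, limma adjusted p = 0.00534). Irs2, an adaptor of the insulin receptor, read 8.06, 7.72 and 7.62 in VEC and 8.84, 8.32 and 8.44 in WT and rose by 0.73. The receptor gene Insr read 9.49, 9.25 and 9.07 in VEC and 10.77, 9.82 and 10.17 in WT, with WT A highest, and rose by 0.98. Ddit4 (REDD1), Deptor and Sesn1, which also restrain mTOR complexes, rose by 1.08, 0.29 and 0.9999.

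Cell cycle restraint was represented by 5 of 18 genes that rose. Changes in this role ran from -0.89 to 2.22. None of its genes was called lower with all arrays, but 1 was without WT B and 1 without WT C. Btg2, an antiproliferative gene, read 7.61, 7.99 and 7.39 in VEC and 10.91, 8.85 and 9.88 in WT and rose by 2.22 (SE 0.43, limma adjusted p = 0.00997). Rbl2, the pocket protein p130 that holds E2F targets silent in resting cells, read 7.55, 7.40 and 7.16 in VEC and 8.51, 7.91 and 8.04 in WT and rose by 0.79 (SE 0.16, limma adjusted p = 0.0123). Tob1, Klf6 and Cited2 rose by 0.69, 0.43 and 0.25. Klhl24, a ubiquitin ligase adaptor gene, read 7.41, 6.87 and 6.22 in VEC and 9.46, 8.14 and 9.09 in WT with WT B lowest in WT, and rose by 2.07. Among survival genes Trp53inp2 rose by 1.32 and the mitophagy receptor Bnip3l by 0.42, and Bbc3 (0.16) and Bcl2l11 (0.34), 2 death-promoting genes, did not pass. Txnip, which limits glucose uptake, read 11.32, 10.77 and 10.58 in VEC and 11.90, 11.10 and 11.25 in WT, with overlapping groups. The letters TGTTTAC, a FoxO-type site, were found in 0 of 13 upstream windows of called members, in 6 of 25 of the others and in 3.11% of all windows. In the Myc network 3 of 14 rose, where 7.06% of all genes did. Mxd4, a Max partner that opposes Myc, read 7.54, 7.42 and 7.07 in VEC and 9.34, 8.19 and 8.68 in WT. It rose by 1.39 (SE 0.24, limma adjusted p = 0.00735), and Mxd1 and Mlxip rose by 0.42 and 0.37. The count for this network was 0 without VEC C and 1 without WT A. Myc itself read 9.56, 9.94 and 10.08 in VEC and 10.27, 10.16 and 10.27 in WT, without overlap, and did not pass at 0.37 (limma adjusted p = 0.124). Whether its probe set reads the Myc transgene of the line was not tested.

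Lysosomes degrade proteins, lipids and sugars, and autophagy delivers the cell's own material to them. Of 64 genes measured, 31 rose and 2 fell, against 7.06% and 5.72% of all genes, with a median of 0.37. The rises numbered 3 without VEC C, and 1 of the falls was called there. Among cathepsins, the proteases of the lysosome, 5 of 11 rose. Ctso read 5.05, 4.96 and 5.001 in VEC and 6.06, 6.18 and 5.75 in WT and rose by 0.99 (SE 0.11, limma adjusted p = 0.000929). Ctsl read 9.72, 10.08 and 9.76 in VEC and 11.38, 10.47 and 10.83 in WT, with WT A highest, and rose by 1.04, and Ctsa, Ctsb and Ctsz rose by 0.58, 0.54 and 0.41. Of 20 glycosidases and lipases 13 rose. Lipa, the acid lipase, read 7.92, 8.32 and 7.85 in VEC and 8.81, 8.71 and 8.81 in WT and rose by 0.75 (SE 0.12, limma adjusted p = 0.0059). Idua, which degrades glycosaminoglycans, read 5.44, 5.82 and 5.76 in VEC and 6.59, 6.25 and 6.21 in WT and rose by 0.68 (SE 0.12, limma adjusted p = 0.00818). Glb1 (beta-galactosidase), Smpd1 (acid sphingomyelinase), Naglu and Arsb rose by 0.99, 1.07, 0.69 and 0.41.

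Of the lysosomal membrane and proton pump genes 4 of 13 rose, among them Scarb2 (8.12, 7.99 and 7.94 in VEC and 9.06, 8.52 and 8.99 in WT, a rise of 0.84) and Lamp2 (0.39). Of 16 autophagy genes 9 rose. Wipi1, which acts at the forming autophagosome, read 8.48, 8.44 and 8.28 in VEC and 9.52, 8.98 and 9.10 in WT and rose by 0.80 (SE 0.12, limma adjusted p = 0.00535). The initiating kinase gene Ulk1 read 8.24, 8.21 and 8.20 in VEC and 9.12, 8.68 and 8.75 in WT and rose by 0.64, and the cargo receptors Sqstm1 (p62) and Nbr1 by 0.75 and 0.69. Atg5, needed for lipidation of the autophagosome membrane, went the other way at 7.67, 7.51 and 7.61 in VEC and 7.08, 7.24 and 7.32 in WT and fell by 0.38 (SE 0.071, limma adjusted p = 0.00909). So did Mitf, 1 of the 4 factors of the TFEB family, at 7.88, 7.75 and 7.77 in VEC and 7.42, 7.38 and 7.46 in WT: it fell by 0.38 (SE 0.066, limma adjusted p = 0.00733), while Tfeb (-0.04), Tfe3 (0.02) and Tfec (0.08) did not pass. The CLEAR letters TCACGTGA, which that family binds, stood in 1 of 30 windows of called members, 5 of 25 of the others and 1.25% of all windows.

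**Figure D4:**
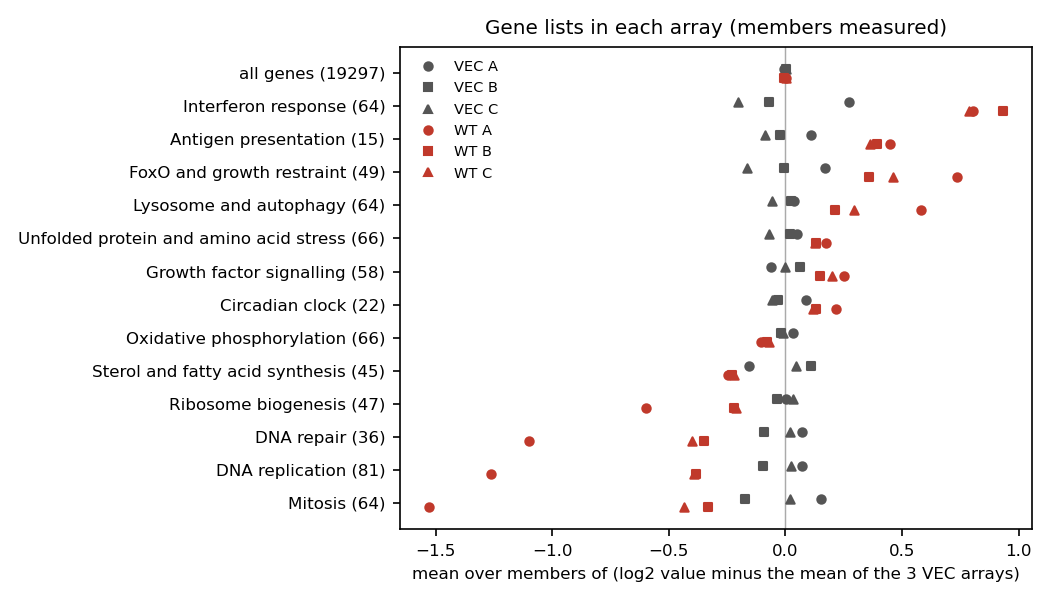
Mean over the members of each gene list of the log2 value minus the mean of the 3 VEC arrays (x axis), for each of the 6 arrays. VEC is grey and WT red, shapes mark replicates, and the number of genes is in parentheses. All 3 WT arrays lie right of VEC for the interferon, FoxO and lysosome lists, and WT A lies far left of WT B and WT C for replication, repair and mitosis.

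DNA replication starts when origin recognition and Mcm proteins license the DNA, continues when the Cdc45 and Gins proteins join, and is carried out by polymerases on the Pcna clamp. E2F factors switch these genes on as cells enter S phase. Of 81 genes none rose and 45 fell, where 5.72% of all genes fell, with a median of -0.70. The count was 3 without VEC A, 20 without VEC B, 0 without VEC C and 13 without WT A. WT A lay lowest: the mean shift of the list was -1.26, -0.38 and -0.39 in WT and 0.07, -0.10 and 0.02 in VEC. All 3 WT arrays lay below all 3 VEC arrays in 71 of the 81 genes, as they did in 16.4% of all genes. The median was -0.83 within batch A and -0.47 within batch B.

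By role, 8 of 16 licensing genes, 7 of 10 firing genes, 15 of 20 polymerase and clamp genes, 8 of 20 nucleotide supply genes and 7 of 15 S phase entry genes fell. Orc6 read 9.51, 9.61 and 9.62 in VEC and 8.49, 9.05 and 9.13 in WT and fell by 0.69 (SE 0.14, limma adjusted p = 0.0126). Mcm4, a subunit of the replicative helicase, read 10.36, 10.04 and 10.29 in VEC and 8.30, 9.49 and 9.51 in WT and fell by 1.13 (SE 0.26, limma adjusted p = 0.0185). Gins2 read 9.07, 9.14 and 9.17 in VEC and 7.61, 8.45 and 8.34 in WT and fell by 0.99 (SE 0.18, limma adjusted p = 0.00873). Prim1, the primase subunit, read 9.29, 9.16 and 9.24 in VEC and 6.79, 8.48 and 8.45 in WT, more than 1.6 below the other WT arrays in WT A, and fell by 1.33 (SE 0.37, limma adjusted p = 0.0343). The differences of other called members were -1.002 for the licensing factor Cdt1, -1.02 for Cdc45, -0.83 for Rpa2, -0.996 for the thymidylate synthase gene Tyms and -1.13 for Umps, all falls. The cyclins Ccne1 and Ccne2, which drive entry into S phase, changed by -0.90 and -0.95. E2f1 read 9.32, 9.11 and 9.18 in VEC and 7.74, 8.73 and 8.80 in WT and fell by 0.78 (SE 0.23, limma adjusted p = 0.0419), and E2f7, an E2F repressor, fell by 0.81.

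A motif of E2F type, any of TTTCGCGC, TTTCCCGC, TTTGGCGC and TTTGCCGC on either strand, was searched in the same 250 upstream bases. Matches in capitals from called replication genes show where it lies.
Mcm5, chr8:75109322-75109381 (plus strand): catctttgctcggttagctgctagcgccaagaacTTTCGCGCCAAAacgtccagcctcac
Cdc6, chr11:98907975-98908034 (plus strand): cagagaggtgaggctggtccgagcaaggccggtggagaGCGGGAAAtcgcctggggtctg
Pola1, chrX:93632272-93632331 (minus strand): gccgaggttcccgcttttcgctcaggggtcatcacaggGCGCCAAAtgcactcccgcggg
It stood in 9 of 39 windows of called replication genes (23.1%) and in 6 of 30 of those not called (20%). Among all genes called lower the share was 7.33%, and among all windows 2.91%. Mcm5 read 11.02, 10.85 and 10.97 in VEC and 9.10, 10.33 and 10.46 in WT and fell by 0.98, Cdc6 fell by 0.72, and Pola1 fell by 1.09. The E-box CATCTG, a preferred site of Twist dimers, was found in 12.1% of the windows of genes called higher, 12.4% of those called lower and 13.7% of all, so its share in both directions was close to that of all windows. In the genes called with and without each array it was 14.5% for the rises and 15.2% for the falls.

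Of DNA repair genes 21 of 36 fell, against 5.72% of all genes, and none rose. The count was 3 without VEC A, 13 without VEC B, 0 without VEC C and 8 without WT A, and the median was -0.67. Fancl, the Fanconi anaemia ubiquitin ligase, read 7.53, 7.50 and 7.78 in VEC and 6.53, 7.19 and 6.94 in WT and fell by 0.71 (SE 0.14, limma adjusted p = 0.0117), and 7 of 8 Fanconi genes fell. Brca2 fell by 1.05, and the checkpoint kinase genes Atm, Atr and Chek1 changed by -0.62, -0.42 and -0.84. Xpc, a nucleotide excision repair gene, had every WT array above VEC, at 7.96, 7.82 and 7.54 in VEC and 8.70, 7.99 and 8.22 in WT, and did not pass at 0.53 (limma adjusted p = 0.0524).

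Of 64 mitosis genes 14 fell and none rose, against 5.72% and 7.06% of all genes, and the median was -0.77. Every WT array lay below every VEC array in 51 of them, against 16.4% of all genes. The count was 0 without VEC A, 0 without VEC C, 4 without WT A, 57 without WT B and 39 without WT C. The mean shift was -1.53, -0.33 and -0.44 in WT, so that WT A lay more than 1 unit below WT B and WT C. Trip13, a checkpoint ATPase gene, read 9.26, 8.90 and 9.24 in VEC and 6.63, 8.41 and 8.16 in WT and fell by 1.40 (SE 0.37, limma adjusted p = 0.0301). Ncapg2, a condensin subunit, read 8.84, 8.51 and 8.80 in VEC and 6.27, 7.93 and 7.76 in WT and fell by 1.40 (SE 0.35, limma adjusted p = 0.0243). Cdk1, the mitotic kinase, read 11.31, 11.04 and 11.17 in VEC and 9.64, 10.73 and 10.74 in WT and fell by 0.80, and Birc5 (survivin) fell by 1.11. Mki67, the proliferation marker Ki-67, read 11.09, 10.55 and 10.77 in VEC and 9.22, 10.54 and 10.43 in WT and did not pass at -0.74 (limma adjusted p = 0.11), nor did Ccna2 at -0.64 (limma adjusted p = 0.0776). None of 12 spindle and cytokinesis genes passed, although 10 had every WT array below every VEC array, against 16.4% of all genes. Of 30 histone genes 6 rose (3 without VEC A and 0 without VEC C) and 5 fell (3 without VEC A, 3 without VEC B, 1 without VEC C, 1 without WT A, 13 without WT B and 8 without WT C).

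Ribosomes are assembled in the nucleolus, and mitochondria keep their own set. Of 47 ribosome biogenesis genes 20 fell, against 5.72% of all genes, and none rose, with a median of -0.38 and counts of 7 without VEC A, 13 without VEC B, 0 without VEC C and 8 without WT A. Fbl (fibrillarin), which methylates ribosomal RNA, read 10.43, 10.57 and 10.57 in VEC and 9.68, 10.10 and 9.92 in WT and fell by 0.62 (SE 0.12, limma adjusted p = 0.00959). Noc4l, Gnl3 and Nolc1, all nucleolar, changed by -0.50, -0.42 and -0.46. Polr1e, a subunit of RNA polymerase I, read 8.10, 8.03 and 8.11 in VEC and 7.27, 7.67 and 7.67 in WT and fell by 0.54, and its initiation factor gene Rrn3 fell by 0.30. Of 77 mitochondrial ribosomal proteins 29 fell and none rose (median -0.23), with counts of 13 without VEC A, 18 without VEC B, 0 without VEC C and 4 without WT A. Of 70 cytosolic ribosomal proteins 4 fell and 1 rose (median 0.027), a share of falls close to that of all genes, and the falls numbered 1 without VEC A, 1 without VEC B, 0 without VEC C and 0 without WT A.

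Respiratory chain and citric acid cycle genes showed 12 falls and 1 rise among 66, against 5.72% and 7.06% of all genes, with a median of -0.081. The falls numbered 4 without VEC A, 0 without VEC C and 3 without WT A. Sdhd, a subunit of complex II, read 10.08, 10.13 and 10.21 in VEC and 9.63, 9.87 and 9.71 in WT and fell by 0.40 (SE 0.075, limma adjusted p = 0.00933). Fh1 (fumarase) read 9.64, 9.51 and 9.55 in VEC and 9.02, 9.28 and 9.24 in WT and fell by 0.39, and the complex IV genes Cox5a and Cox7a2 changed by -0.35 and -0.25. Ndufa6, a complex I subunit, rose by 0.51 (9.32, 9.23 and 9.27 in VEC and 10.01, 9.62 and 9.70 in WT). Of 41 heat shock and proteasome genes 9 fell and 1 rose. Of the falls 7 were among the 27 proteasome genes, such as Psmd2 (11.43, 11.32 and 11.37 in VEC and 10.92, 11.14 and 11.16 in WT, a change of -0.30), and the falls numbered 1 without VEC A, 4 without VEC B, 0 without VEC C, 0 without WT A and 14 without WT C. The co-chaperone gene Bag3 rose by 0.27.

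Cholesterol is built from acetyl-CoA through mevalonate to squalene and from squalene through lanosterol to cholesterol, and SREBP factors drive the genes together. Of 45 sterol and fatty acid genes 17 fell and 3 rose, against 5.72% and 7.06% of all genes, with a median of -0.29, and the falls numbered 11 without VEC B, 3 without VEC C and 10 without WT A, and the rises 0 without VEC C, 1 without WT A and 6 without WT B. Of 10 genes from squalene onward 7 fell. Dhcr7, the last enzyme, read 8.10, 8.27 and 8.35 in VEC and 7.54, 7.63 and 7.65 in WT and fell by 0.64 (SE 0.072, limma adjusted p = 0.00121), a call that held without each of the 6 arrays. The values of Sqle, squalene epoxidase, and of Msmo1 stand above, with limma adjusted p = 0.00416 and 0.00535. Cyp51, lanosterol demethylase, read 8.14, 8.84 and 8.82 in VEC and 7.01, 7.75 and 7.69 in WT and fell by 1.11 (SE 0.22, limma adjusted p = 0.0117). Lss, Hsd17b7 and Sc5d changed by -0.62, -0.58 and -0.30. In the upper branch 4 of 8 fell and 1 rose. Idi1 read 8.47, 9.28 and 9.24 in VEC and 7.61, 8.24 and 8.08 in WT and fell by 1.02 (SE 0.22, limma adjusted p = 0.0139). Hmgcs1 read 7.84, 8.72 and 8.49 in VEC and 7.52, 7.51 and 7.61 in WT and fell by 0.80. Mvk and Pmvk changed by -0.33 and -0.31, and Ggps1, which leads to protein prenylation, rose by 0.57 (7.56, 8.03 and 7.74 in VEC and 8.56, 8.20 and 8.28 in WT).

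**Figure D5:**
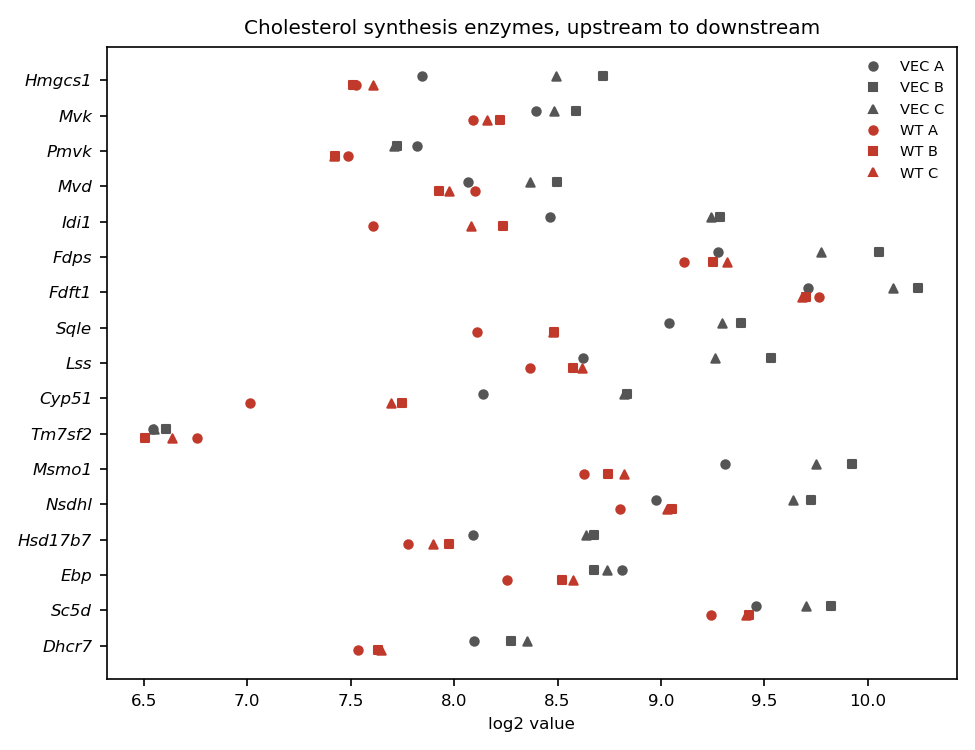
Log2 values (x axis) of 17 measured cholesterol synthesis genes in the order of the pathway, from Hmgcs1 to Dhcr7, in each of the 3 VEC (grey) and 3 WT (red) arrays. Most WT points lie left of VEC, and VEC A lies left of VEC B and VEC C in many rows, such as Hmgcs1 at 7.84 against 8.72 and 8.49.

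In Hmgcs1, Idi1, Lss and Cyp51 the array VEC A was the lowest control and lay nearest to WT, and VEC B was the highest. The mean shift of the list in VEC was -0.15, 0.11 and 0.04, against -0.25, -0.23 and -0.22 in WT. Of 6 regulators Srebf2 read 9.29, 10.04 and 9.77 in VEC and 9.63, 9.62 and 9.57 in WT and Srebf1 8.60, 8.58 and 8.56 in VEC and 8.61, 8.54 and 8.41 in WT, and neither passed (-0.10 and -0.06). Mylip, which directs the LDL receptor to degradation, rose by 0.58 (8.20, 7.62 and 7.72 in VEC and 8.64, 8.30 and 8.34 in WT). Of 13 fatty acid genes 6 fell, among them Elovl5 (10.13, 10.22 and 10.22 in VEC and 9.50, 9.80 and 9.79 in WT, a change of -0.49) and Acaca, acetyl-CoA carboxylase (-0.39), and Acss2 rose by 0.29. The sterol element, the letters TCACNCCAC, stood in 1 of 19 windows of called members and 1.22% of all. The 1 match, in capitals, was that of Hmgcs1.
Hmgcs1, chr13:119690177-119690236 (plus strand): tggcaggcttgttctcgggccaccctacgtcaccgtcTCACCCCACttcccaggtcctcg

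The unfolded protein response senses misfolded protein in the endoplasmic reticulum through Ern1 (IRE1), Atf6 and Eif2ak3 (PERK), and raises chaperones through Xbp1 and Atf6. Of 66 genes of this response and of amino acid stress, 18 rose and 2 fell, against 7.06% and 5.72% of all genes, with a median of 0.11. The rises numbered 0 without VEC C and 10 without WT A, and the falls 1 without VEC A, 1 without VEC B, 0 without VEC C, 1 without WT A and 5 without WT B. Ern1 read 9.58, 9.69 and 9.47 in VEC and 10.30, 10.11 and 9.9996 in WT and rose by 0.56 (SE 0.094, limma adjusted p = 0.00677). Atf6 rose by 0.52, and Eif2ak3 did not pass at 0.47 (limma adjusted p = 0.0644). Xbp1 read 10.32, 10.46 and 10.09 in VEC and 11.52, 10.89 and 11.01 in WT and rose by 0.85 (SE 0.16, limma adjusted p = 0.00876). Atf3, a stress-induced factor, read 8.90, 8.58 and 8.28 in VEC and 10.37, 9.45 and 9.56 in WT and rose by 1.21 (SE 0.26, limma adjusted p = 0.0133), and Ddit3 (CHOP), Nupr1 and Creb3l2 rose by 0.50, 0.49 and 0.38. Of 17 chaperone genes 8 rose and 1 fell. Hspa5 (BiP) read 11.46, 11.52 and 11.42 in VEC and 11.997, 11.75 and 11.84 in WT and rose by 0.40 (SE 0.070, limma adjusted p = 0.00733), and Pdia6, Pdia4, Hsp90b1 and Pdia3 rose by 0.58, 0.59, 0.43 and 0.33. Of 18 amino acid supply genes 2 rose and none fell. Atf4, their main activator, read 8.49, 8.69 and 8.61 in VEC and 8.54, 8.69 and 8.55 in WT, Cth rose by 0.58, and of 15 tRNA synthetases Sars rose by 0.23 and Lars fell by 0.40.

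Chemokine and NF-kB genes were mixed, with 2 higher and 3 lower of 43, shares near the 7.06% and 5.72% of all genes. Besides Cxcl5, Ppbp, another neutrophil chemokine gene, read 8.12, 8.60 and 8.67 in VEC and 5.92, 7.46 and 7.47 in WT, with WT A lowest, and fell by 1.51 (SE 0.36, limma adjusted p = 0.0201). Il33, an alarmin cytokine, read 9.20, 7.66 and 8.02 in VEC and 6.60, 7.24 and 7.54 in WT and fell by 1.17. Ccl5, which attracts T cells and is also induced by interferon, read 6.22, 5.51 and 5.49 in VEC and 6.61, 7.69 and 7.62 in WT and rose by 1.56 (SE 0.34, limma adjusted p = 0.0143). Nfkb2 rose by 0.49 (8.47, 8.44 and 8.31 in VEC and 9.19, 8.66 and 8.84 in WT). None of 8 feedback inhibitors passed. Of the 5 calls only that of Cxcl5 held without VEC C.

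Growth-factor genes showed 12 rises and no fall among 58, against 7.06% and 5.72% of all genes, with a median of 0.07 and counts of 5 without VEC A, 2 without VEC C and 2 without WT A. Of the ligands Hbegf, an EGF family member (7.53, 8.01 and 7.87 in VEC and 8.67, 8.30 and 8.37 in WT), rose by 0.64, Pdgfc (8.97, 9.11 and 8.81 in VEC and 10.72, 9.49 and 9.85 in WT) by 1.05 and Kitl by 0.35. Of the receptors Ddr2, a collagen receptor kinase, read 5.40, 5.72 and 5.58 in VEC and 6.20, 6.11 and 6.07 in WT and rose by 0.56 (SE 0.079, limma adjusted p = 0.00417), and Fgfr2, Fgfr3 and Egfr rose by 0.78, 0.80 and 0.44. Among feedback genes Dusp1 is given above, and Jun and Errfi1 rose by 0.79 and 0.22. Of 65 TGF-beta, BMP, Wnt and Notch genes 9 rose and none fell, with counts of 1 without VEC C and 5 without WT A. Fzd2, a Wnt receptor, read 8.06, 8.23 and 8.11 in VEC and 8.77, 8.64 and 8.65 in WT and rose by 0.55 (SE 0.062, limma adjusted p = 0.00109). Tgfbr3 read 9.05, 8.85 and 8.69 in VEC and 9.82, 9.37 and 9.52 in WT and rose by 0.71, and Tgfb2 read 8.08, 8.39 and 7.97 in VEC and 10.53, 8.65 and 9.38 in WT, with WT A highest, and rose by 1.37. Lgr4, a co-receptor for R-spondins, rose by 0.87 and Maml1, a Notch coactivator, by 0.37.

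Lists of p53, androgen receptor and clock genes are set against 7.06% of all genes higher and 5.72% lower. In the p53 list 5 of 23 rose and 2 fell, and the rises numbered 3 without VEC B, 2 without VEC C, 3 without WT A and 3 without WT C. Mdm2, the ubiquitin ligase of p53, read 7.86, 8.08 and 7.89 in VEC and 8.73, 8.43 and 8.49 in WT and rose by 0.61 (SE 0.096, limma adjusted p = 0.00546), whereas Ppm1d, a phosphatase that damps p53, and Ccng1 changed by -0.30 and -0.23. The falls numbered 1 without VEC A, 1 without VEC B, 0 without VEC C, 0 without WT A and 1 without WT C. Of 21 androgen receptor and prostate genes 4 rose, Folh1, Sox9, Zbtb16 (9.74, 9.59 and 9.39 in VEC and 10.41, 9.98 and 10.16 in WT, a rise of 0.61) and Slc45a3 (0.49), and Steap1 fell by 0.59 (8.87, 8.88 and 8.997 in VEC and 7.91, 8.55 and 8.52 in WT). The rises numbered 2 without VEC A, 1 without VEC C and 2 without WT A. Of 22 clock genes 5 rose, with counts of 3 without VEC B, 0 without VEC C and 1 without WT A: the repressor gene Per1 (8.88, 8.97 and 8.68 in VEC and 9.83, 9.27 and 9.40 in WT) by 0.66, the output factor Dbp by 0.62, Rora by 0.56 and the regulators Btrc and Csnk1e by 0.46 and 0.25. The core activators Clock (-0.12) and Arntl (-0.31) did not pass.

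The counts that follow stand against 7.06% of all genes higher and 5.72% lower. Of 38 hypoxia and glycolysis genes 5 rose, Arnt, Vhl, Hk1, Hk2 and Ddit4, with counts of 2 without VEC A, 3 without VEC B, 0 without VEC C, 1 without WT A and 3 without WT C and a list median of -0.023. Of 36 oxidative stress and glutathione genes 6 rose, with counts of 3 without VEC B, 0 without VEC C and 1 without WT A, led by Nfe2l1 (10.08, 9.90 and 9.78 in VEC and 10.73, 10.28 and 10.43 in WT, a rise of 0.56), and the glutathione reductase Gsr fell by 0.50. Of 51 integrin, matrix and protease genes 3 rose, with counts of 0 without VEC C, 0 without WT A and 5 without WT B, and 5 fell, with 2 without VEC A, 0 without VEC C, 1 without WT A and 3 without WT C. Timp1, an inhibitor of matrix metalloproteinases, read 10.33, 10.32 and 10.51 in VEC and 8.42, 9.50 and 9.75 in WT and fell by 1.16 (SE 0.27, limma adjusted p = 0.0191), and Reck, a membrane-bound inhibitor, rose by 0.45.

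Markers of other cell types had list means below the arrays' middle value of 6.37 in both groups, although 2 of 16, 4 of 18 and 3 of 15 members of the lists lay above it in at least 1 group. Of 16 haematopoietic markers, 1 rose, Cd68, which is also a lysosomal protein (6.40, 6.63 and 6.41 in VEC and 7.45, 6.79 and 7.05 in WT, 0.61). The mean of the list ran from 5.10 to 5.17 in VEC and from 5.09 to 5.20 in WT, and Ptprc, the pan-leukocyte gene, read 4.68, 4.61 and 4.73 in VEC and 4.61, 4.64 and 4.51 in WT. None of 18 fibroblast and endothelial markers passed, with list means from 5.39 to 5.44 in VEC and from 5.39 to 5.46 in WT. Of 15 neural and muscle markers Tnnt2 fell, with the values given above, and the list means ran from 5.83 to 5.84 in VEC and from 5.76 to 5.78 in WT, without overlap. Olfactory receptor genes, which these cells are not known to use, had 4 of 1024 members higher and 4 lower, and vomeronasal receptors 0 of 166 and 2. Zinc finger genes named Zfp, set against 7.06% and 5.72% of all genes, had 29 of 345 higher (16 without VEC A, 1 without VEC C and 10 without WT A) and 7 lower (0 without VEC C, 3 without WT A and 13 without WT B). Tripartite motif genes, many of them antiviral, had 9 of 60 higher (4 without VEC B, 0 without VEC C and 3 without WT A) and 1 lower. Solute carriers had 21 of 362 higher (13 without VEC A, 3 without VEC C and 8 without WT A) and 11 lower (7 without VEC A, 4 without VEC B, 0 without VEC C and 2 without WT A), and Rab GTPases, which steer vesicles, 8 of 73 higher (3 without VEC C and 13 without WT B) and 3 lower. Hox genes had 1 of 38 each way. Kinesins had 2 of 38 higher and 1 lower, the latter 0 without VEC A, 0 without VEC B, 0 without VEC C, 0 without WT A, 12 without WT B and 8 without WT C. Tubulins had none of 15 higher and 3 lower, the latter 0 without VEC A, 0 without VEC C, 0 without WT A and 5 without WT C.

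Wild-type Twist1 was also set against the mean of the AQA, DQD and F191G forms. In this contrast, which shares the WT arrays with the one above, 2208 genes (11.4%) were higher and 2191 (11.4%) lower in WT. Centring each array on its median turned this split to 1058 and 3247. Without WT A the numbers were 420 and 394, and leaving out DQD A or F191G A gave 1356 and 1337, or 1359 and 1387. Ogn read 10.62, 6.37 and 9.30 in WT and between 2.97 and 6.07 in the 9 other arrays, and was higher in WT by 4.80 (SE 0.76, limma adjusted p = 0.0078). Angptl7 read 11.20, 7.35 and 10.31 in WT and between 4.02 and 6.77 in the 9 other arrays, a difference of 4.78 (SE 0.69, limma adjusted p = 0.0078), and Igfbp5 read 12.02, 9.27 and 10.77 in WT and between 6.62 and 9.26 in the 9 other arrays, a difference of 2.85 (SE 0.49, limma adjusted p = 0.0086). For all of these WT A and WT C stood above the other forms, with WT B only just above them. The largest falls were cell division genes. Cenpk, a kinetochore gene, read 5.21, 6.87 and 6.53 in WT and between 7.0 and 8.05 in the 9 other arrays, and Hells, a chromatin remodeller, 6.46, 8.17 and 8.28 in WT and between 8.48 and 9.63 in the 9 other arrays, with WT A lowest in both.

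Values of both contrasts are given side by side for the leading genes. Ifit3 differed by 1.68 from the mean of the other forms (limma adjusted p = 0.0185) and by 5.02 from VEC. Irf7, Stat2 and Usp18 differed from the other forms by 0.61, 0.44 and 0.15, and none of these passed. Folh1 differed by 0.18 and Krt15 by -0.33, also without passing. Pdcd4 (1.52), Kdm7a (1.67) and Trp53inp1 (1.80) passed in this contrast too, each with an adjusted p of 0.00777 in limma. Twist1 itself differed by 0.05 (SE 0.12, limma adjusted p = 0.78) between WT and the other forms. Against 11.4% of all genes each way, 10 of 64 interferon genes were higher in WT than in the other forms, a share near that background, and 2 without WT A. Of 49 growth restraint genes 28 were higher, and 10 without WT A. Of 81 replication genes 73 were lower, and 18 without WT A.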

How the data were processed

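RNA samples of Myc-CaP cells (5 groups of 3) were hybridised to 1-colour Affymetrix Mouse Gene 1.0 ST arrays. The deposited values are log2 expression per probe set, made by the authors with RMA, with limma also named per the submitters' processing notes, and versions are not given there. The series' text also speaks of normalizing samples to Twist1 levels without saying how. The table of 23811 probe sets was used as deposited. Probe sets with 1 gene symbol (20852) were kept. Those with several (1440) or not listed in the annotation (1519) were left out and counted from another fit, of all 23811 probe sets. Of several probe sets for a gene (846 genes) that with the highest mean was kept, which left 19297 genes. The gene ID matched the RefSeq gene table for 20805 probe sets, and no symbol needed updating.

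A linear model with the 5 groups and the labelled batch was fitted to all 15 arrays (8 in batch A, 7 in batch B) with limma 3.58.1 in R 4.3.3, with Benjamini-Hochberg adjustment over all genes, and genes were called at an adjusted p under 0.05. WT was contrasted with VEC and with the mean of the other 3 forms. The 31 gene lists and the gene families were described by counts and medians, with no test of a list. The comparison, the lists and the rules were chosen with earlier results of these data known.

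Genes are named by the size of the change (15 each way among called genes, 15 each way among those called with and without each array, 5 each way against the other forms), by the smallest p within each role of a list (up to 5) and by roles such as factors and receptors. The names Acss2, Bst2, Cdc6, E2f7, Ifit1, Lss, Mcm5, Mki67, Mx1, Oas1a, Oas2, Oasl2, Parp14, Pola1, Sc5d, Smpd1 and Tap2 fall outside that rule and were chosen after their values were seen. Motifs were searched in the 250 bases upstream of RefSeq starts (GRCm38.p6). The number of arrays limits the precision.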

Additional observations from a re-analysis of the deposited data

Results flagged for a closer look

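In the contrast of WT with the mean of the AQA, DQD and F191G forms, a test of the difference between the Twist1 forms passed (limma adjusted p under 0.05) for the genes with the largest differences. Ogn was higher in WT by 4.80 on the log2 scale, Angptl7 by 4.78, Igfbp5 by 2.85, Cyp2b10 by 2.25 and Adh1 by 2.14. WT A was the highest array and WT B the lowest of WT in each of these. For Cyp2b10, WT B (6.58) lay below AQA B (6.99), and for Adh1, WT B (8.46) lay below AQA B (9.25), F191G B (8.95) and F191G C (8.67). Lower in WT were Fbxo5 (-1.39), an inhibitor of the anaphase-promoting complex, Cenpk (-1.39), Ncapg2 (-1.37), Dscc1 (-1.33), which helps to load the replication clamp, and Hells (-1.32). Each of the 5 lower genes had its lowest value in WT A.

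Among 2959 probe sets with several gene symbols or not listed in the annotation, which the comparisons above leave out, 88 (2.97%) were higher and 100 (3.38%) lower in WT than in VEC at a limma adjusted p under 0.05. These calls come from a fit of all 23811 probe sets, with the adjustment over all of them.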

How the results depend on the processing

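Neither Twist1 nor any of 286 called genes picked by the rule for named genes changed sign under the alternatives run for them. This is weak evidence of stability, since the 286 were picked as called and every alternative reuses the same arrays. Dropping the batch term or adding the replicate block leaves the WT minus VEC difference unchanged in this layout. The balance of calls did turn under median centring, from 1362 higher and 1104 lower to 1079 and 1104 against VEC, and from 2208 and 2191 to 1058 and 3247 against the other forms. The number of genes called in WT against VEC (1362 higher and 1104 lower) stayed within 1.5 times under no batch term, repeated quantile normalization, median centring, array weights, leaving out the dimmest genes, a robust fit with a variance trend, and use of every probe set. With only the 6 arrays of both groups it was 9 and 1. That fit has fewer residual degrees of freedom and takes its spread from these arrays alone. Why the number fell was not tested. Batch A alone gave 0 and 0 by limma (1531 and 1372 at an unadjusted p under 0.05), batch B alone 213 and 80, and the Twist1 value as a covariate 11 and 6. Leaving out each array in turn gave from 87 to 1631 higher and from 41 to 1630 lower. In these fits a group of 2 arrays, or of 1 within a batch, relies on a spread shared with the other groups.

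The contrast with the other Twist1 forms (2208 and 2191) gave 0 and 0 in batch A alone (2830 and 2374 at an unadjusted p under 0.05), 137 and 111 in batch B alone, and from 420 to 2434 higher and 394 to 2456 lower with 1 array left out. Genes called with and without each array (86 and 41) numbered 571 and 367 with no batch term, 46 and 28 under median centring, and 186 and 98 without the dimmest genes, all chosen after seeing the data. The causes were not tested. Twist1 stayed short of the threshold under every alternative run.

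The replicate letters were shared by all groups. Deviations of same-lettered WT and VEC arrays correlated at -0.06 (A), -0.33 (B) and 0.00 (C), so the letters were not taken as pairs. With the replicate block and the batch term, 975 genes were higher and 548 lower, and of those called with and without each array 14 and 4.

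Of the 286 genes, 42 stayed called without VEC C, 152 without WT A, 165 without VEC A, 214 without VEC B, 258 without WT C and 275 without WT B.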
